A study of Mus musculus with 12 samples.

Results

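The strongest constitutive open regions of mouse splenic CD4+ T cells are described here. They are 1138 stretches, called open from their ATAC-seq peaks alone. Each ranked in the top 10% of every peak list used, in regulatory and in conventional T cells and in both genotypes. They were chosen by the p-value of their peaks. The 27 with by far the lowest p-values differed from the rest in shape, and whether these 27 are open chromatin was not tested. Overlapping or touching peaks of 11 ATAC-seq peak lists were merged, which gave 39974 regions; all 11 lists had a peak in 14728 of them. The strength of a region in a list was the percentile, within that list, of its best peak by the −log10 p of the authors' peak caller. Regions at percentile 90 or above in each of the 11 lists are the members, 7.73% of the 14728 shared regions; the remaining 13590 shared regions serve as the comparison.

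ATAC-seq finds open chromatin through the Tn5 transposase, which inserts sequencing adapters where DNA is not wrapped in nucleosomes. Sites that are open in nearly every sample of a lineage are often promoters of broadly used genes or binding sites of insulator proteins, while sites that differ between related cell types are more often enhancers. Regulatory T cells (Treg) restrain immune responses and depend on the transcription factor Foxp3, while conventional CD4+ T cells (Tconv) without Foxp3 include naive and helper cells.

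All animals carried a Foxp3-IRES-EGFP reporter, and cells came from spleen. Treg were sorted as CD4+ GFP-positive and Tconv as CD4+ GFP-negative cells, with 100000 cells per library. The WT animals carried the reporter alone, and the KO animals in addition lacked an enhancer labelled "Lrrc32+ 70k"; Lrrc32 codes for GARP, a docking receptor for latent TGF-beta on activated Treg. There were 3 libraries each of WT Treg, KO Treg, WT Tconv and KO Tconv. Nothing in the labels gives age or sex or ties each library to an animal of its own; the p-values below therefore weigh spread among libraries, some of which may be technical. KO Treg replicate 2, with 5262 peaks against 21269 to 27605 in the other lists, took no part in choosing the members, which were looked up in it afterwards. It may share an animal with KO Tconv replicate 2, which did take part, so its independence is not known. The labelled cell types could not be checked against marker genes, because regions were not assigned to genes.

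The members were a small part of each list and a large part of its top. They held 4.14% to 5.36% of the peaks of a list, 6.15% to 7.75% of the bases its peaks covered, and 41.3% to 53.5% of the peaks in its top 10%. A place in the top 10% was often not shared: 4414 shared regions reached percentile 90 in at least 1 list, and 25.8% of them did so in all 11. Another 298 regions reached it in 10 of the 11 lists. Of those, 88 were below the threshold in WT Tconv replicate 3 alone, the list with the fewest peaks of the 11, and between 6 and 33 in each of the other lists. WT Tconv replicate 3 was also the list in which 259 of the 1138 members had their lowest percentile. Of the 1609 regions at 90 or above in all 5 Treg lists, 70.7% were members, and of the 1325 at that level in all 6 Tconv lists, 85.9% were. These shares rest on unlike numbers of lists, and the 6 include WT Tconv replicate 3, so they do not compare the cell types.

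The threshold cuts through a continuous range. The member nearest to it, chr4:41071015-41071586, had a lowest percentile of 90.02. The next members inside, chr3:98944718-98945814 and chr4:94645263-94646444, were at 90.03 and 90.04. The nearest shared regions outside, chr5:100844932-100845800, chr15:59146129-59146949 and chr2:180921376-180922582, had lowest percentiles of 89.99, 89.98 and 89.97. These values chose the members, so they are given as a description with no test.

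Most members were single peaks of moderate width, with edges that fell at similar places in every library. The median merged width was 1046 bp (quartiles 890 and 1223 bp), and 1012 of the 1138 members measured 500 to 1500 bp. The other shared regions had a similar median width, 1034 bp, with wider quartiles of 804 and 1347 bp. In 1125 members every list had a single peak, a share of 98.9%, against 92.9% of the other shared regions (12629 of 13590).

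Members and other shared regions differed more in how far the lists overlapped than in total width. The stretch covered by a peak in all 11 lists had a median length of 660 bp in the members and 404 bp in the other shared regions. It made up a median of 65.1% of a member's width against 41.2%. The start or end of a member, whichever varied more, moved over a median of 215 bp between the 11 lists, against 350 bp in the other shared regions. In the 1138 other shared regions nearest below the threshold (lowest percentiles of 81.4 to 89.99) this median was 251 bp. In the weakest regions it was 516 bp, so the spread changed with strength over all shared regions. The p-value, length and edge position of a peak come from the same lists, so these differences are not independent of the choice and were not tested. Within the members, strength and length went little together. Spearman's rho between lowest percentile and median covered length was 0.02 across 1138 regions of the same 11 libraries. With merged width in place of covered length it was −0.075. Over all 14728 shared regions, rho between lowest percentile and median covered length was 0.27. These values are a description only.

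The deposited fold over background was moderate in most members. Its median over the 11 lists was 8.10 in the median member (quartiles 7.21 and 8.91) and 6.35 in the median other shared region (quartiles 5.46 and 7.32). For the 1138 other shared regions nearest below the threshold the median was 7.79. The −log10 p had a median of 44.6 in the members and 15.1 in the other shared regions, which is the selection itself. Among the members, which were chosen by p, longer regions tended to have the lower fold (Spearman's rho −0.67 between median covered length and median fold, 1138 regions); over all 14728 shared regions rho was −0.17. Lowest percentile by p and median fold had a rho of 0.65 over all shared regions and 0.15 in the members. These are descriptions over regions of the same 11 libraries. A part of the members, 224 or 19.7%, also reached percentile 90 in all 11 lists when the fold was ranked in place of p. Those 224 were 59.4% of the 377 regions chosen by fold.

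A small set of members stood far above all others in −log10 p. In 27 members the median −log10 p over the 11 lists was at least 200. The lowest of these 27 was at 211, and the next member below was at 130, so a gap separated them from the remaining 1111. This bound was set after the values were seen. The highest, chr2:98506397-98507478, was first in all 11 lists, with −log10 p between 19031 and 38800 and a width of 1082 bp. By lowest percentile the next ones included chr12:98299644-98299996 (353 bp, median −log10 p of 11580), chr6:103599042-103599281 (240 bp, 9798), chr9:35112807-35113176 (370 bp, 4100) and chr6:9839948-9840154 (207 bp, 3496).

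These 27 members did not look like the rest in shape. Their median width was 378 bp against 1048 bp in the other members, and 19 of 27 were under 500 bp against 9 of 1111. Their edges were nearly the same in every library: the larger of start and end spread had a median of 4 bp, against 218 bp in the other members. In 20 of the 27, start and end each stayed within 20 bp over the 11 lists. Such fixed edges occurred in 24 members in all and in 1 of the 13590 other shared regions. The peak chr9:35112807-35113176 had the same first and last base in all 11 lists and covered 370 bp in each, and chr10:95540251-95540515 covered 265 bp in each.

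Their fold values lay at both extremes. In 15 of the 27 the median fold was at least 20, a value that 1 of the other 1111 members reached, with 32.4 at chr3:148715440-148715898 as the highest. In 4 of the 27 it was under 5, as in 11 of the other 1111. The lowest, 1.57, belonged to chr1:24617650-24623776, a region of 6127 bp, and chr2:22442919-22445699 had 3.01 over 2781 bp.

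The 27 lay often at the outermost shared regions of a chromosome. Counting the 3 shared regions nearest to each chromosome end, 9 of the 27 were among them, against 28 of all 1138 members and 126 of all 14728 shared regions. Examples are chr9:3000035-3004834, the first shared region of chromosome 9, chr2:181747481-181747952, the last of chromosome 2, and the last 2 of chromosome X at chrX:166527169-166527502 and chrX:166649922-166650293. Lists of sites that give very tall signal in many sequencing assays, whatever the sample, are a common filter in this field. No such list was used here, and whether these members are on one was not tested.

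**Figure D1:**
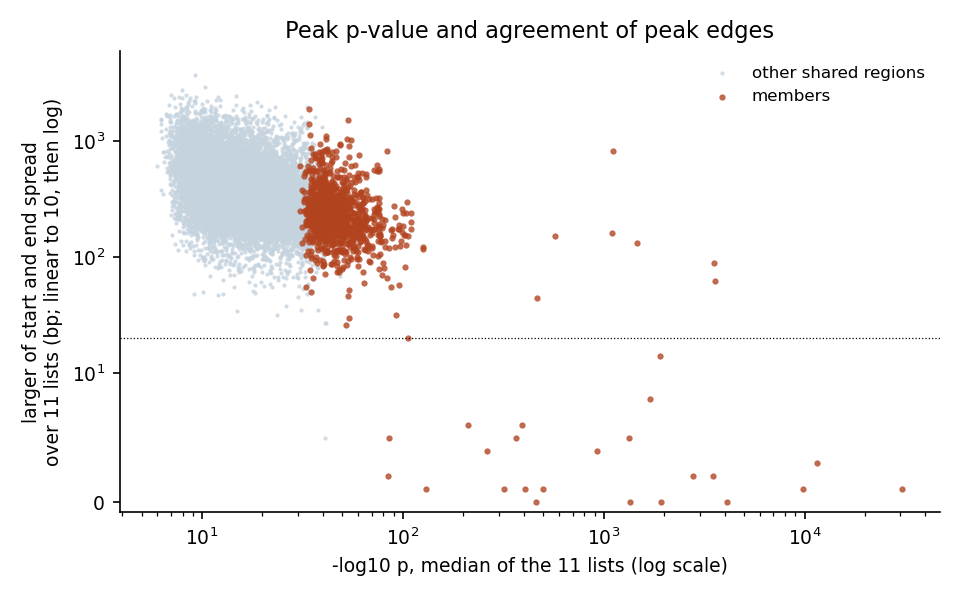
Each point is 1 shared region, a member (red) or not (pale blue). The x axis (log scale) gives the median −log10 p over the 11 lists and the y axis how far the start or the end, whichever varied more, moved between lists, in bp (linear to 10, then log). The dotted line marks 20 bp. A sparse cloud to the right of 200 holds 27 members, most of them below the dotted line, apart from the dense cloud of members between 30.6 and 130.

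The widest members were few and partly the same regions. The widest, chr9:3005676-3038224, spanned 32549 bp, of which each of the 11 lists covered 31679 to 32390 bp, at a median fold of 4.03. It lay next to chr9:3000035-3004834 (4800 bp), which was the fourth widest and also among the 10 strongest. The second widest was chr10:7229441-7237180 (7740 bp), the third chr1:24617650-24623776, and the fifth chr13:85427626-85430494 (2869 bp). The fifth was of another kind: its covered length ran from 1065 to 2492 bp over the lists, and its lowest percentile was 91.9, against at least 98.9 in the other 4.

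KO Treg replicate 2, the library left out of the choice, had a peak in nearly all members. Of the 1138 members, 1090 (95.8%, exact 95% Clopper-Pearson interval 94.4% to 96.9%, counting error only) held at least 1 base of a peak of this library. Of the other shared regions, 3366 of 13590 (24.8%, 24.0% to 25.5%) did, and of all shared regions 30.3%. This list is 1 library, and regions are not replicates, so no test was made between these shares. The part of its small number of peaks, 5262, in the contrast was not tested.

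The share was lower in weaker regions. With all shared regions ordered by lowest percentile and divided into 13 bins, 12 of them of 1138 regions, the share was 95.8% in the members, 77.7% in the next bin (lowest percentiles of 81.4 to 89.99) and 60.8% in the third. It went on down to 11.3% in the eighth bin and lay between 4.10% and 8.08%, with no steady order, in the 5 weakest. Within the members it was 90.6% at lowest percentiles of 90 to 92 (221 of 244), 94.9% at 92 to 94, 96.9% at 94 to 96, 99.5% at 96 to 98 (202 of 203) and 98.1% at 98 and above (205 of 209). In the other shared regions at lowest percentiles of 80 to 90 it was 76.1% (1029 of 1353).

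**Figure D2:**
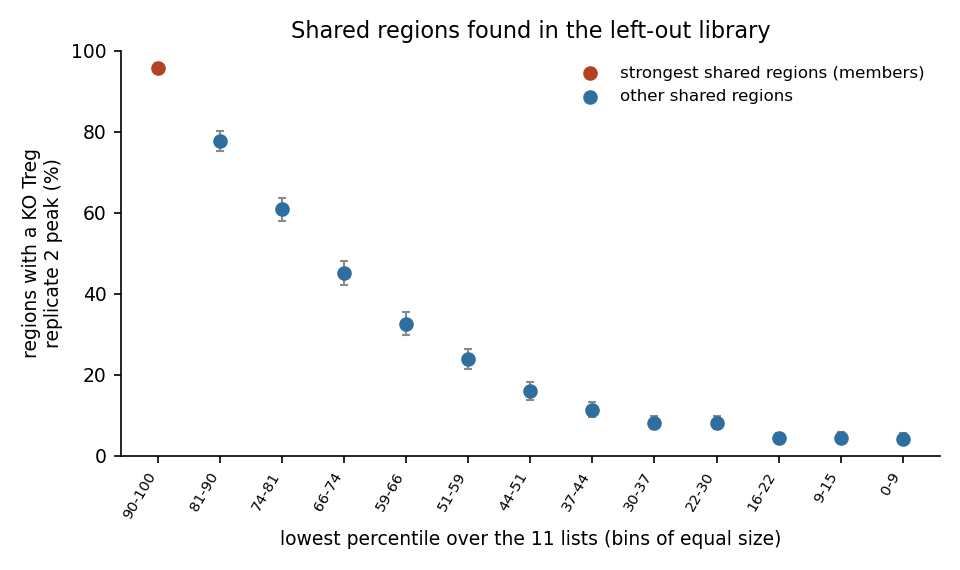
The y axis gives the percentage of shared regions with a KO Treg replicate 2 peak, and the x axis 13 bins of shared regions by lowest percentile over the 11 other lists, strongest on the left; bars are exact 95% intervals. The share falls from 95.8% in the members (red) through 77.7% in the next bin to 4.10% in the weakest.

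Where KO Treg replicate 2 had a peak in a member, that peak was shorter than in the other lists but usually high within its own. It covered a median of 466 bp, which was 0.564 of the length that the same member had in the median of the 11 lists. At least 50% of the merged width was covered in 415 members (36.5%), against 549 other shared regions (4.04%). Within the list of this library, the median percentile of the members with a peak was 85.9, against 46.2 for other shared regions with a peak. A percentile of 90 or above was reached by 423 of the 1090, and 79 were under 50. The members held 20.8% of its 5262 peaks and 80.6% of the peaks in its top 10% (425 of 527).

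The order of the members carried over in part. Across the 1138 members, Spearman's rho between lowest percentile in the 11 lists and percentile in KO Treg replicate 2, with 0 where it had no peak, was 0.57. Without the 24 members with fixed edges it was 0.55 across 1114. The 5 highest in KO Treg replicate 2 were all among the 10 strongest of the 11 lists, and chr2:98506397-98507478 was first there too. All 5 belonged to the 27 members with a median −log10 p of at least 200. Of those 27, 24 reached percentile 99 in KO Treg replicate 2, against 17 of the other 1111 members. The lowest with a peak was chr11:22881657-22882635, at percentile 2.41 with 292 bp covered, although its lowest percentile in the 11 lists was 91.6. It was followed by chr7:126979150-126980475 at 6.63, chr11:3092892-3093810 at 7.20, chr10:7933379-7934375 at 9.62 and chr17:7165218-7166218 at 9.77.

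The 48 members without a KO Treg replicate 2 peak were narrower than the rest. Their median merged width was 710 bp against 1054 bp for the 1090 with a peak, and their median lowest percentile was 92.1 against 94.8. Their fold was not lower: it had a median of 9.34 against 8.04. By width, 19 of 28 members under 500 bp had a peak (67.9%, exact 95% interval 47.6% to 84.1%), 80 of 97 between 500 and 750 bp (82.5%) and 259 of 261 at 1250 bp or more (99.2%). The 48 lay on 19 chromosomes, among them 6 of the 38 members of chromosome 11 and 4 of the 16 of chromosome 19.

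Some of the members with the highest −log10 p were among the 48. The strongest without a peak, chr12:3109880-3110093, had a mean percentile of 99.96, and chr11:121843683-121843853 and chr17:68090702-68090872 had 99.90 and 99.87. These 3 were 214, 171 and 171 bp wide. The shortest peak in the KO Treg replicate 2 list was 200 bp, whereas the shortest peaks of the other lists were 137 to 160 bp. In the 11 lists these 3 members were covered over a median of 204, 171 and 165 bp. Whether peak length bears on their absence was not tested; chr6:79768139-79768340, with a median of 201 bp, and chr6:9839948-9840154, with 206 bp, had a peak in that list. The next 2 were chr11:90400128-90400448, with a mean percentile of 99.56 and a median of 321 bp covered, and chr9:123370916-123371306, with 98.49 and 370 bp. Of the 27 members with a median −log10 p of at least 200, these first 3 lacked a peak, and the other 24 were all at percentile 99.4 or above in KO Treg replicate 2.

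Members lay far apart as a rule, but a member was followed by another member more often than other shared regions were. The gap between neighbouring members on a chromosome had a median of 1029 kb (quartiles 211 and 3125 kb; 1118 gaps), and the smallest was 0.841 kb. In the 12 bins of other shared regions the median gap was 829 to 1021 kb. Of the members with a further shared region after them on the chromosome, 183 of 1130 (16.2%, exact 95% interval 14.1% to 18.5%) had another member as that next region. Of the other shared regions, 7.01% were followed by a member. In the other bins, 7.12% to 9.50% of regions were followed by a region of their own bin. Of the 377 regions chosen by fold, 370 had a next shared region, and in 17 of these (4.59%) it was another region so chosen. The fold choice took 2.56% of all shared regions and the choice by p 7.73%. The neighbour share was thus lower by fold, but above the share chosen in both cases.

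Joining members across gaps of up to 50 kb gave 73 groups of 2 or more, with 166 members in all, and 13 groups of 3 or more. Close spacing as such was not particular to the members. They had 93 gaps of at most 50 kb, against 57 to 96 in the 12 bins of other shared regions. Gaps of at most 10 kb numbered 5, against 6 to 27. The largest, at chr13:67369656-67501172, held 6 members within 131.5 kb. All 6 shared regions in that stretch were members, 909 to 1315 bp wide, with lowest percentiles of 94.5 to 96.8 and a KO Treg replicate 2 peak in each, at percentiles from 74.7 to 94.9. A group at chr5:110180097-110296329 held 4 members, which were all 4 shared regions within 116.2 kb; the last of them, chr5:110295265-110296329, had a lowest percentile of 99.3. A group at chr7:13482743-13564242 held 4 members among 7 shared regions within 81.5 kb, with lowest percentiles from 91.15 to 99.02. On chromosome 13, chr13:67584445-67654578 (70.1 kb) and chr13:74599811-74701999 (102.2 kb) also held 4 members each, among 4 and 6 shared regions. In these 5 groups every member had a KO Treg replicate 2 peak, the lowest at percentile 31.8.

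The members were unevenly spread over chromosomes. On chromosome 13, 88 of 683 shared regions were members (12.9%, exact 95% interval 10.5% to 15.6%), compared with 7.73% over all chromosomes. Chromosomes 18 (10.9%), 7 (10.3%) and 6 (9.81%) followed. The lowest shares were on chromosomes X (14 of 439, 3.19%, interval 1.75% to 5.29%), 19 (4.12%) and 11 (38 of 900, 4.22%, interval 3.005% to 5.75%). On chromosome Y none of 19 shared regions was a member; a count of 0, taken to allow 3 counts, leaves a share of up to 15.8%. The intervals treat regions as independent, which neighbouring regions need not be. Chromosome 11 held 3.34% of the members, 3.43% of the next bin (lowest percentiles of 81.4 to 89.99) and 7.46% of the weakest bin. Chromosome 7 held 8.70%, 7.91% and 5.22% in the same order. The low share of chromosome 11 and the high share of chromosome 7 were thus not particular to the members. Chromosome 13 held 7.73%, 6.06% and 4.38%, and chromosome X 1.23%, 2.46% and 3.54%.

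Of the 88 members of chromosome 13, 37 lay in a single stretch and 51 outside it. Between 60 and 70 Mb, the 10 Mb window with the most members, 37 of 84 shared regions were members (44.0%). It was picked for that count. The median over 240 windows was 6.98%, and from 10 to 20 Mb of chromosome 3 the share was 37.9% (11 of 29). On chromosome 13 outside 60 to 70 Mb, 51 of 599 shared regions were members (8.51%). The 37 members had the usual shape, with a median width of 1130 bp against 1040 bp in the members elsewhere and a median fold of 8.21 against 8.09. All 37 had a KO Treg replicate 2 peak, at a median percentile of 86.3, against 95.6% of the members elsewhere, at a median of 85.9. Without chromosome 13, 14.8% of the members were followed by a member (154 of 1042), against 33.0% on chromosome 13 (29 of 88).

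The shares by chromosome differed in part when the fold was ranked. With regions chosen by fold, 15 of 683 shared regions of chromosome 13 passed (2.20%), under the 2.56% over all chromosomes, and 13 of 388 on chromosome 19 (3.35%). Chromosome 7 was above the whole by both, with 40 of 961 by fold (4.16%). In the stretch of chromosome 13 from 60 to 70 Mb, 5 of 84 passed by fold (5.95%), and 4 of these were members. That stretch was thus above the whole by both rankings, by fold on these 5 regions only. Chromosome 13 in all was above the whole by p alone and chromosome 19 below it by p alone. Chromosomes 11 (2.11%) and X (2.28%) were below the whole by fold as well.

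**Figure D3:**
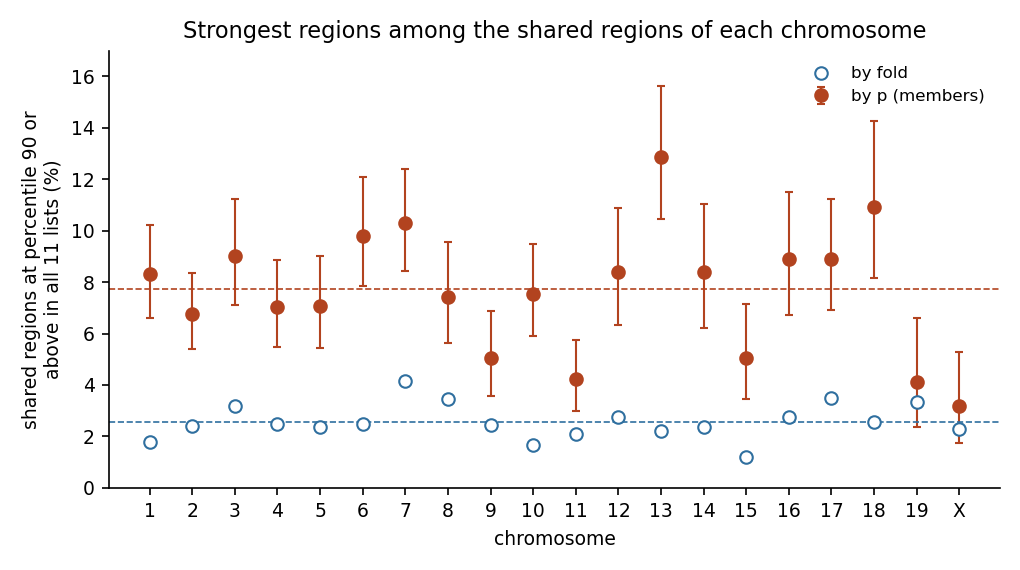
For each chromosome on the x axis, the y axis gives the percentage of its shared regions at percentile 90 or above in all 11 lists, ranked by p (red, the members, with exact 95% intervals) or by fold (open blue). Dashed lines mark the shares over all chromosomes, 7.73% and 2.56%. By p, chromosome 13 is highest at 12.9% and X lowest at 3.19%, while by fold chromosome 13 is at 2.20%; Y is not drawn.

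Peak length at the members was compared between cell types and genotypes. Length was taken as the bases covered by peaks in a member, with the median over the 1138 members as the value of a library. It was 859, 875.5 and 803.5 bp in WT Treg replicates 1 to 3 and 861 and 876 bp in KO Treg replicates 1 and 3. It was 797.5, 822.5 and 747.5 bp in WT Tconv replicates 1 to 3 and 827.5, 852.5 and 868 bp in KO Tconv replicates 1 to 3. WT Treg replicate 3 was low among Treg and WT Tconv replicate 3 low among Tconv, and the ranges of the cell types overlapped.

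In Treg the length was 855 ± 29.9 bp (SD, n = 5) and in Tconv 819 ± 42.9 bp (SD, n = 6), a difference of 35.8 bp (exact permutation test over 462 labelings, two-sided p = 0.156, BH-adjusted 0.234 over 3 comparisons). Within WT the difference was 56.8 bp (exact permutation p = 0.2, n = 3 each) and within KO 19.2 bp (exact permutation p = 0.4, n = 2 and 3), where the smallest possible p is 0.1 in both. The difference over all 11 libraries did not pass 0.05, in a test that could have reached 0.00216. That test left replicate numbers aside. In all 5 pairs of the same genotype and number, Treg was above Tconv, by 8 to 61.5 bp. The exact sign-flip p was 0.0625, the smallest possible for 5 pairs. Whether same-numbered libraries share an animal is not in the labels. Without WT Tconv replicate 3 the difference between cell types was 21.4 bp.

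KO Tconv had 849 ± 20.4 bp and WT Tconv 789 ± 38.2 bp (SD, n = 3 each), and all 3 KO values lay above all 3 WT values. The exact permutation p was 0.1, the smallest that 3 libraries against 3 allow (BH-adjusted 0.234). Without WT Tconv replicate 3 the difference fell from 60.2 to 39.3 bp. KO Treg had 868.5 ± 10.6 bp (SD, n = 2) and WT Treg 846 ± 37.7 bp (SD, n = 3; exact permutation p = 0.6, BH-adjusted 0.6, smallest possible 0.1). Neither genotype comparison could pass 0.05. That difference of 22.5 bp was 1.25 bp without WT Treg replicate 3.

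The other shared regions differed in the same direction. Their median length was 684 ± 53.0 bp in Tconv (SD, n = 6) and 716 ± 40.7 bp in Treg (SD, n = 5). List size differed too: KO Tconv lists held 24649 to 25283 peaks and WT Tconv lists 21269 to 24546. The part of list size in the difference was not tested. With each library's value divided by that of its other shared regions, the ratio was 1.18 ± 0.0124 in KO Tconv and 1.22 ± 0.0531 in WT Tconv (SD, n = 3 each; exact permutation p = 0.5). It was 1.20 ± 0.0286 in Treg and 1.20 ± 0.0391 in Tconv (SD, n = 5 and 6; exact permutation p = 0.868). All 3 differences had the opposite sign on this scale.

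**Figure D4:**
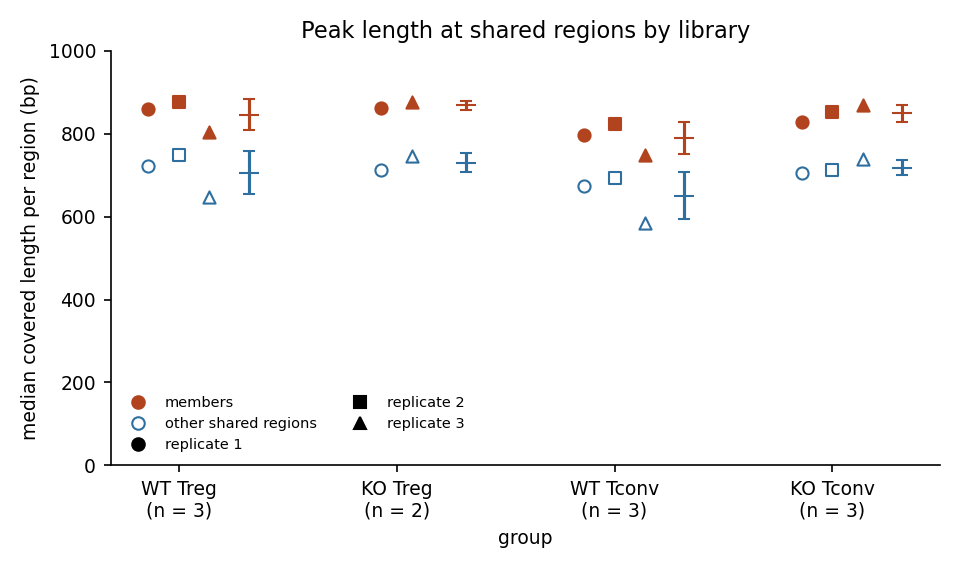
Points give the median covered length per region of each library, in bp, for the members (filled red) and the other shared regions (open blue), by group, with marker shapes for the replicate numbers; bars beside them are the mean and SD of the group. The members lie between 747.5 and 876 bp and the other shared regions between 585 and 748 bp, and both are lowest in WT Tconv replicate 3.

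Ranks within the shared regions were set side by side to see which members leaned to one cell type. A rank here is the percentile of a region's −log10 p among the same 14728 regions in each library, which has one length everywhere. The rule holds every member near the top of each list, so large differences were not possible. In 39 members all 5 Treg ranks were above all 6 Tconv ranks, 3.43% of the members, where 3.52% of all shared regions did so. In 23 members all Tconv ranks were above all Treg ranks, 2.02% against 3.15%. Together these were 62 members (5.45%), against 6.67% of all shared regions, a share near the background and not a result about the members. With ranks of fold, 28 members separated (2.46%, against 3.57%), and by covered length 12 (1.05%, against 3.06%).

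The differences were small. The absolute difference between mean Treg and mean Tconv rank had a median of 0.996 percentage points in the members and 7.08 in the other shared regions, a contrast that follows from the choice. It was at least 5 points in 18 members (1.58%) and in 8557 other shared regions (63.0%), for the same reason.

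The member that leaned most to Tconv was chr6:129130396-129131157, 762 bp wide. Its ranks were 84.4, 87.5, 85.4, 86.8 and 86.4 in WT Treg replicates 1 to 3 and KO Treg replicates 1 and 3. They were 97.6, 97.6 and 98.5 in WT Tconv and 97.7, 97.1 and 97.3 in KO Tconv. Every Tconv library was above every Treg library, and the genotypes did not stand apart within a cell type. Next came chr16:51674876-51676515, with median ranks of 97.5 in Tconv and 85.3 in Treg, and chr11:121534166-121534840, with 96.4 and 88.4. The last 2 of the 5 were chr7:28834939-28835491 (96.4 and 88.6) and chr6:149257810-149258671 (97.8 and 89.7). Of these 5, chr16:51674876-51676515 and chr6:149257810-149258671 had overlapping ranks.

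The member that leaned most to Treg was chr6:21899197-21900606, 1410 bp wide. Its ranks were 95.5, 94.7 and 95.3 in WT Treg and 97.0 and 93.9 in KO Treg replicates 1 and 3. They were 84.1, 89.3 and 91.6 in WT Tconv and 89.2, 85.4 and 93.9 in KO Tconv. The groups met closely, with 93.89 as the lowest Treg and 93.86 as the highest Tconv value. It was followed by chr12:119539439-119541057, with median ranks of 95.5 in Treg and 89.4 in Tconv, and chr14:22319381-22320617, with 97.6 and 92.2. The last 2 of the 5 were chr7:73834311-73835220 (96.3 and 91.6) and chr17:25864174-25864789 (91.2 and 86.4), both with overlapping ranks.

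**Figure D5:**
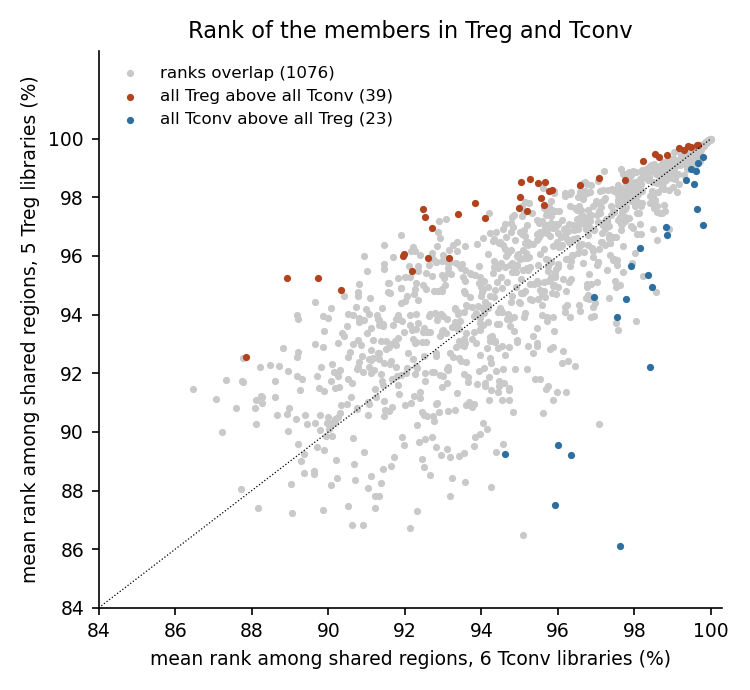
Each point is a member, at its mean rank among the 14728 shared regions in 6 Tconv libraries (x axis, percent) and 5 Treg libraries (y axis, percent); the dotted line marks equal ranks. Red points are the 39 members with all Treg ranks above all Tconv ranks, blue points the 23 with the reverse, and grey points the 1076 whose ranks overlap. The points scatter around the line, and the one farthest below it has 86.1 in Treg and 97.6 in Tconv.

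In KO Treg replicate 2, whose values did not enter these ranks, the members that leaned to either cell type were both high. The 39 with higher Treg ranks had a peak in 38 cases, at a median percentile of 93.4 in that list. The 23 with higher Tconv ranks had one in 21 cases, at a median of 89.6, and the 1076 with overlapping ranks in 1031, at 85.6. Quartiles overlapped widely, from 57.4 to 95.2 in the 23 and from 85.8 to 97.6 in the 39. These sets also differed in strength: the median of the mean rank was 96.6 in the 39, 97.0 in the 23 and 95.2 in the 1076. The part of strength in these percentiles was not tested.

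Between genotypes the members separated at the rate of all shared regions. In Tconv, 148 members had all 3 KO ranks above (88) or below (60) all 3 WT ranks, 13% of the members, against 13.2% of all shared regions. In each direction the background was 7.09% and 6.1%. In Treg, with 2 KO and 3 WT libraries, 218 members separated (110 with KO above and 108 with WT above), 19.2% against 21.3%, with 11.0% and 10.3% in the separate directions. Both totals were near the background. The direction depended on the measure. In Tconv, ranks of fold put KO above WT in 33 members (2.90%, background 5.61%) and WT above KO in 78 (6.85%, 5.63%). Covered length put KO above in 152 (13.4%, background 11.6%) and WT above in 7 (0.615%, 1.49%). In Treg, ranks of fold put KO above in 98 members (8.61%, background 10.3%) and WT above in 127 (11.2%, 10%). Covered length put KO above in 157 (13.8%, background 11.7%) and WT above in 61 (5.36%, 7.39%).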

How the data were processed

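ATAC-seq peak lists of 12 libraries (4 groups of 3, grouped and numbered from the sample titles) were used. The members and lists were chosen with earlier results of these data known. Per the submitters' processing notes, the build was NCBIM37 and the tools included MACS2, Bowtie2 and Trim Galore 0.4.4, besides DESeq2 and DiffBind; their roles, read filters and any shift of cut sites are not given there. Each deposited peak carries the authors' fold ratio over background and their −log10 p and −log10 q; no counts were held, so no count test was run, and read depth is unknown.

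Peaks of 11 lists were merged where they overlapped or touched. Percentiles were taken within a list, and the highest of a region's peaks was used. KO Treg replicate 2 had a region where at least 1 base of its peaks lay in it. Fold and p were ranked within lists only. Covered lengths were compared by exact two-sided permutation over libraries. Shares have exact 95% Clopper-Pearson intervals, counting error only. Positions are 1-based.

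The regions named are the 10 highest by lowest percentile, the 5 widest, the 5 strongest without a KO Treg replicate 2 peak, the 5 highest and 5 lowest in that library, 3 on each side of the threshold, the 3 groups with the most members (4 groups tie for the second place and were taken in genome order) and the 5 with the largest rank difference in each direction; further ones were chosen after their values were seen. The percentile and merging steps were tested on simulated lists. Alternatives were other thresholds, fold or q ranks, joining across gaps of up to 200 bp, equal numbers of peaks, stricter peaks, autosomes alone, KO Treg replicate 2 as a 12th list, pairing by number and leaving out each library. Gene names, gene lists, markers and sequences need an NCBIM37 genome and annotation and were not used here. Python 3.11.15, numpy 2.4.6, pandas 2.3.3, scipy 1.17.1 and matplotlib 3.10.9 were used.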

Additional observations from a re-analysis of the deposited data

Results flagged for a closer look

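The libraries of each cell type were screened for a value whose gap to the nearest other was large against the whole range (Dixon's 95% critical value). Chance gives about 1 such value in 20 screens, and 6 of 10 screens gave one. Among the Treg libraries, KO Treg replicate 2 stood apart with 5262 peaks. Among the Treg lists used for the choice, WT Treg replicate 3 stood apart in the median covered length of the members, at 803.5 bp against 859 to 876 bp. The other 4 concern WT Tconv replicate 3. It held 21269 peaks against 24019 to 25283 in the other Tconv lists, its members made up 53.5% of its top 10% and 5.36% of its peaks, and its covered length at the members was 1.28 times that at the other shared regions. These 4 measures share the size of that list and are not independent.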

How the results depend on the processing

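Members numbered 1804 at percentile 85, 541 at 95, 377 by fold and 423 with KO Treg replicate 2 as a 12th list. Their share with a KO Treg replicate 2 peak was 90.6%, 98.5% and 71.6% at 85, at 95 and by fold, 97.1% with stricter peaks, 36.5% with 50% of a region covered and 81.1% with stricter KO Treg replicate 2 peaks. For the other shared regions it was 21.8%, 27.7%, 29.2%, 31.4%, 4.04% and 6.66% in the same order, and 28.5% with equal numbers of peaks. The median gap was 596, 2067 and 3575 kb and the share followed by a member 19.8%, 14.1% and 4.59% at 85, at 95 and by fold, and the width by fold was 765 bp. Relative to the other shared regions the length differences were −0.0035 (Treg against Tconv), −0.0336 (KO against WT Tconv) and −0.0109 (KO against WT Treg). Members that separated by cell type numbered 28 by fold rank, 12 by covered length, 98 at 85 and 39 at 95; by genotype they numbered 231 and 59 in Tconv and 358 and 109 in Treg, at 85 and 95. The thresholds and a 12th list change how many regions are chosen by construction; for the rest the cause was not tested.

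Leaving out 1 library gave 1144 to 1226 members, 95.3% to 95.8% and 23.5% to 24.7% with a KO Treg replicate 2 peak, widths of 1030 to 1044 bp, gaps of 938 to 1028 kb and 16.1% to 16.7% followed by a member. The chromosome 13 share was 12.8% to 13.1% and that of chromosome 11 was 4.21% to 4.53%. Length differences were 21.4 to 48.6, 39.3 to 76.8 and 1.25 to 37.3 bp. Separated members numbered 71 to 87 by cell type, 223 to 293 in Tconv and 343 to 548 in Treg, where fewer libraries have to separate. Leaving out the regions with fixed edges, an alternative added after seeing the data as were those of the neighbour, chromosome and genotype values, gave 1114 members with no change of direction. Of 51 named members, 31 fell below 90 or were absent by fold, 11 with lists cut to an equal length, 16 with stricter peaks and 3 on autosomes alone.

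Same-numbered libraries were not treated as pairs in the main tests. Their deviations correlated weakly, at 0.0065 to 0.111 between cell types and −0.107 to −0.0037 between genotypes. Across cell types, however, 10 of 10 libraries correlated best with their own number, so a pairing between cell types remains possible. These 10 are both ends of 5 pairs, and so not 10 separate agreements. With the replicate number as a block, the length differences were 42.4 bp (exact sign-flip p = 0.0625, the smallest possible for 5 pairs), 60.2 bp (exact p = 0.25, the smallest for 3) and 37.3 bp (exact p = 0.5, the smallest for 2). Depth is unknown, so a missing KO Treg replicate 2 peak does not show closed chromatin.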
